A study of Mus musculus with 2 samples.

Results

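The MHC class I presentation genes described here are B2m, the heavy chain genes H2-K1, H2-D1, H2-Q4 and H2-T23, the peptide transporter genes Tap1 and Tap2, the tapasin gene Tapbp, and the immunoproteasome genes Psmb8 and Psmb9. They were chosen by name, and are 10 of the 21888 genes listed for either papilla. Their counts were summed over taste cells with more than 500 genes and with Gnat3, which encodes α-gustducin, above 0.9 on ln(1 + counts per 10000), and over a set of fungiform barcodes with Krt13 plus Krt6a at 1000 CPM (a cell's or set's counts scaled to a total of 1000000) or more. Psmb8 was not listed for the circumvallate papilla and was taken as 0 there.

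Cells were sorted by green fluorescence from tongues of adult α-gustducin-GFP mice on a C57BL/6J background, a line named for a fluorescent reporter of α-gustducin. One library came from the fungiform papillae (FP) of the anterior tongue and the other from the circumvallate papilla (CV) of the posterior tongue. Both papillae share the strain, the reporter, the adult stage and the sorting gates, and neither library is a control. How many mice gave each library, and whether the same mice gave both, is not given in the sources used here. Of 90 barcodes, 21 FP taste cells, 32 CV taste cells and 7 FP keratinocyte-like barcodes were used, and 30 barcodes were outside these sets.

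The taste cells summed to 22646953 counts in FP (193718 to 3190340 per cell) and 29535917 counts in CV (32726 to 3447628 per cell), and the keratinocyte-like barcodes to 11918186 counts (201535 to 4078945 per barcode). Of 8 listed type II taste cell markers, 7 were in the files, and all 7 were at 10 CPM or more in both sets of taste cells and more than 2-fold higher in FP taste cells than in the keratinocyte-like barcodes, although for Gnat3 the choice of cells set this. Of 10 listed lingual keratinocyte markers, 9 were more than 2-fold lower in FP taste cells than in those barcodes, and for Krt13 and Krt6a among them the choice of barcodes set this. Every FP taste cell nevertheless held Krt13 plus Krt6a, at 64.4 to 191 CPM, against 28252 to 78219 CPM in the keratinocyte-like barcodes. The pooled keratin level of FP taste cells was 0.150% of that of the keratinocyte-like barcodes, and the same share of their profile would give at most 0.269 CPM of any of the 10 genes (H2-K1). With 1 library per papilla no replicate check exists, no test was made, and every interval is an exact 95% interval for counting error only, too narrow wherever PCR copies were counted. Fewer copies per cell and poorer capture cannot be told apart in these counts.

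MHC class I molecules hold short peptides on the cell surface for inspection by CD8 T cells and natural killer cells. The heavy chain needs the light chain β2-microglobulin, encoded by B2m, to fold and reach the surface. Peptides are cut by the proteasome, pumped into the endoplasmic reticulum by the TAP transporter and loaded with the help of tapasin, calreticulin and ERp57, and interferon gamma raises most of these genes in many cell types.

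In taste cells of both papillae the heavy chain genes H2-K1, H2-D1 and H2-Q4 were widespread while their light chain gene was not. At least 1 of the 4 heavy chain genes was on, meaning at 50 CPM or more, in 19 of 21 FP taste cells and 29 of 32 CV taste cells, and in 5 of 7 keratinocyte-like barcodes. B2m had no count at all in 11 of those FP taste cells, 24 of those CV taste cells and 2 of those barcodes. The heavy chain gene H2-T23 was on in 5 FP and 5 CV taste cells, and B2m in 5 FP and 0 CV taste cells. Tap1 was on in 2 FP taste cells and in none of the CV taste cells, and Tap2, Psmb8 and Psmb9 were on in none of the cells of any set. H2-Q4 showed the largest excess in CV among the 10 genes, and B2m and Tap1 were higher in FP through a few cells. The plot of single cells shows these differences.

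**Figure D1:**
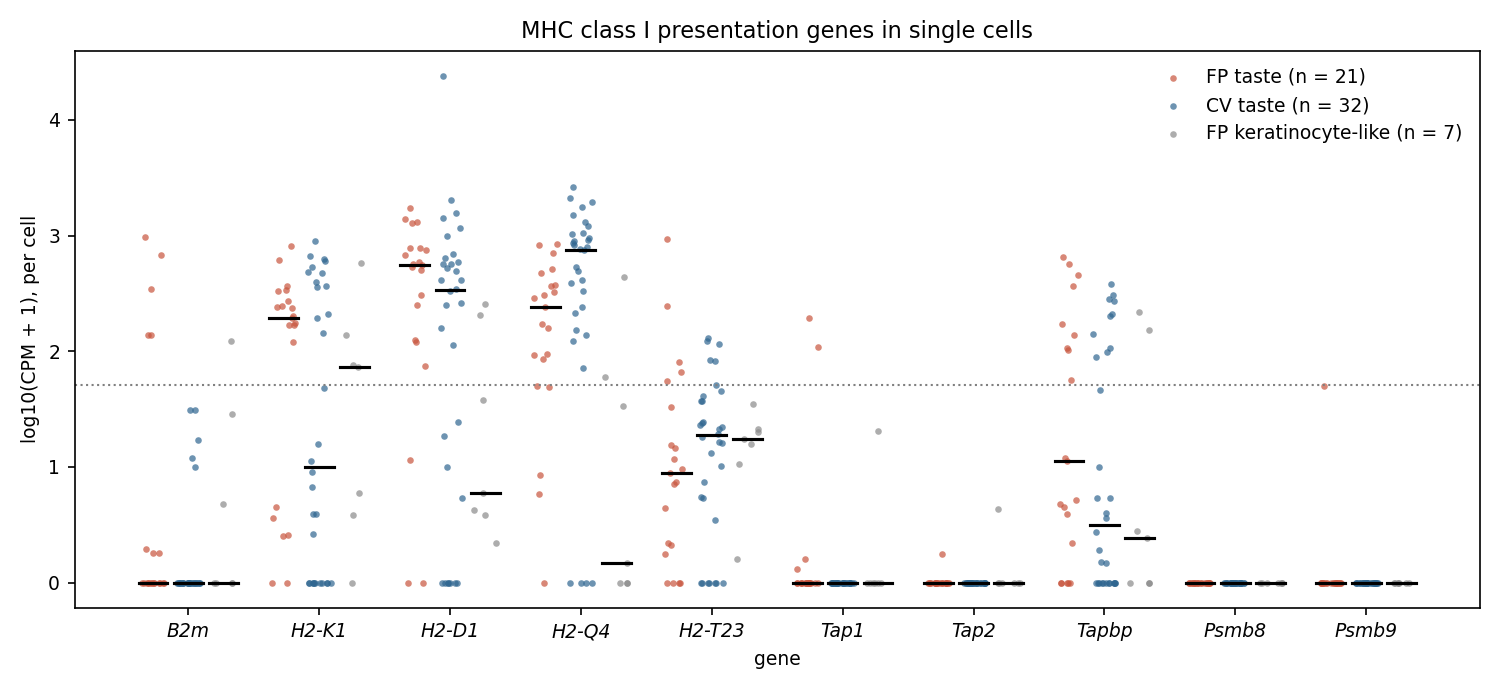
Each point is 1 cell or barcode, with its level of the gene on the x axis as log10(CPM + 1) on the y axis, for FP taste cells, CV taste cells and FP keratinocyte-like barcodes. Black bars are medians and the dotted line is 50 CPM. B2m was above the line in 5 FP taste cells, none of the CV taste cells and 1 keratinocyte-like barcode, while H2-D1 was above it in 18 FP taste cells, 21 CV taste cells and 2 barcodes.

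The stretches before the start sites of the 3 most abundant heavy chain genes, of B2m and of the divergent pair Psmb9 and Tap1 are shown because those heavy chain genes were on in many taste cells, and B2m, Tap1 and Psmb9 in few or none. They are RefSeq sequences on build GRCm38.p6, 250 bases before the annotated start on the gene's own strand. H2-K1 is given at chr17:34000348-34000597 (minus strand), H2-D1 at chr17:35262844-35263093 (plus strand), H2-Q4 at chr17:35379367-35379616 (plus strand) and B2m at chr2:122147437-122147686 (plus strand). The stretch between the Psmb9 and Tap1 starts is 225 bases long and is given on the plus strand, chr17:34187331-34187555. Capitals mark every match on either strand to 5 motifs, which were GGGATTCCC (NF-kB type), GAAGTGAAA (the interferon response form of class I genes), GAAANNGAA (interferon response direct repeat), CCAAT and TGACG (a core of cAMP response elements). No matches overlapped in these stretches. The GENCODE records of H2-D1 and Psmb9 begin farther upstream, so these 2 stretches lie inside the longer records.
H2-K1: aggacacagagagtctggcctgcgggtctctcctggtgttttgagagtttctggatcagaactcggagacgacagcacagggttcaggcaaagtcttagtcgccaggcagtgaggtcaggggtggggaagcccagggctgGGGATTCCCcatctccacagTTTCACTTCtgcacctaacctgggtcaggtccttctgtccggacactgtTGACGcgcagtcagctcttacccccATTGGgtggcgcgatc
H2-D1: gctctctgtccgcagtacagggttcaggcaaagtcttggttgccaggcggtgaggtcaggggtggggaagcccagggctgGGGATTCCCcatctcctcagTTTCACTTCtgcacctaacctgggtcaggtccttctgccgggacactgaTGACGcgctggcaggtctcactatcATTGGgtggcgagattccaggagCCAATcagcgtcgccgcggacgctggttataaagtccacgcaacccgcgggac
H2-Q4: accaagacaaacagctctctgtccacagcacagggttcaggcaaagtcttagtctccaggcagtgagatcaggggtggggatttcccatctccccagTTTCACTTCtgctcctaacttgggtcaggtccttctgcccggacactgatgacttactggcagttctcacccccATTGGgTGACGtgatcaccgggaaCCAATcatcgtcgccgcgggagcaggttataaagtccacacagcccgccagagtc
B2m: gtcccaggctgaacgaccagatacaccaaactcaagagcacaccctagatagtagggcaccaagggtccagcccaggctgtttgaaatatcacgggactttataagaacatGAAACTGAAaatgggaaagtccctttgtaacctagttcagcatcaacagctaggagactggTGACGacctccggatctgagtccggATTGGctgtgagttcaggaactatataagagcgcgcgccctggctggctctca
Psmb9 to Tap1: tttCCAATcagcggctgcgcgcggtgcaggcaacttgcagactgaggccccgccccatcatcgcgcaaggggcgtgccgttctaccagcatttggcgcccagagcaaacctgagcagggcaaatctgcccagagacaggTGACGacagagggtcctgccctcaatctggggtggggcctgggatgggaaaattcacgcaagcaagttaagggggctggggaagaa

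Of the 10 genes 9 had a RefSeq window, and Tap2 is only named. GGGATTCCC lay in the windows of H2-K1 and H2-D1 and in 0.301% of all 32851 windows, which cover 27025 genes. GAAGTGAAA lay in those of H2-K1, H2-D1 and H2-Q4 and in 0.402% of all windows, and it reads TTTCACTTC on the printed strand. GAAANNGAA lay in those of B2m and H2-T23 and in 7.13% of all windows. CCAAT was in 33.8% and TGACG in 17.8% of all windows, and both were in the H2-K1, H2-D1, H2-Q4, B2m, Tap1 and Psmb9 windows. The Psmb8 window held none of the 5. Only these letters were searched, so other forms of a motif are not marked. The matches describe letters only and do not show that a factor was bound.

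B2m, the light chain gene, lies on chromosome 2 (mm10, chr2:122147686-122153083, plus strand), apart from the other 9 genes. Pooled, it stood at 76.4 CPM in FP taste cells (72.8 to 80.1), 4.50 CPM in CV taste cells (3.77 to 5.34) and 26.2 CPM in keratinocyte-like barcodes (23.4 to 29.3). The 5 FP taste cells with B2m on had 970.5, 672, 345, 138 and 137 CPM. The other 16 FP taste cells had at most 3 counts each (0.940 CPM), and 13 of them had 0, the deepest of which had a total of 1688904 counts. Of the CV taste cells 5 of 32 had any B2m count, and the highest was 30.1 CPM. The ratio of FP over CV was 16.96 (14.2 to 20.4), or 2.57 on log2(CPM + 10). The cells of the papillae overlapped at 0, which was the median of each set. The transcript shares none of its 50-base stretches with another gene's transcripts. In comparison, the β-actin gene Actb stood at 3337 CPM in FP taste cells, 2397 CPM in CV taste cells and 1542 CPM in keratinocyte-like barcodes.

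H2-K1 and H2-D1 encode the classical class I heavy chains of this strain, which present peptides to CD8 T cells. H2-K1 (chr17:33996017-34000347, minus strand) had 0, 192 and 806 CPM as its lowest, median and highest level in FP taste cells, and 0, 9.09 and 892 CPM in CV taste cells. It was on in 15 of 21 FP taste cells and 13 of 32 CV taste cells. Pooled levels were 218 CPM in FP and 288 CPM in CV, a ratio of 0.755 (0.729 to 0.782) and a log2 ratio of -0.39. The CV level came from a smaller share of cells with more per cell. Among the cells on the median was 470 CPM in CV and 239 CPM in FP. H2-K1 also rose with total counts in CV (Spearman's rho 0.57) but hardly in FP (0.09), and the part of depth was not tested. The direction of the papilla ratio depended on how cells were weighted, since the mean of CPM per cell gave a log2 ratio of 0.17 and the median 3.40.

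H2-D1 (chr17:35262730-35267499, plus strand) had 0, 555 and 1724 CPM as its lowest, median and highest level in FP taste cells, and 0, 339 and 23945 CPM in CV taste cells. It was on in 18 of 21 FP taste cells and 21 of 32 CV taste cells. Pooled levels were 624 CPM in FP and 766 CPM in CV, a ratio of 0.814 (0.797 to 0.831) and a log2 ratio of -0.29. The highest value belonged to 1 CV barcode in which 1228 of 51285 counts were H2-D1. That barcode had 587 genes and no count of the other 9 genes, and the next highest CV cell had 2029 CPM. The mean over cells was 587 CPM in FP and 1173 CPM in CV with that barcode, and 438 CPM in CV without it. Weighted by cell, the log2 ratio was -0.99 with the mean and 0.70 with the median.

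H2-Q4 is a nonclassical heavy chain gene of the Q region (chr17:35379617-35385290, plus strand). It had 0, 240 and 836 CPM as its lowest, median and highest level in FP taste cells, and 0, 755 and 2624 CPM in CV taste cells. It was on in 16 of 21 FP taste cells and 28 of 32 CV taste cells, and the range of FP cells lay inside that of CV cells. The pooled level was 240.1 CPM in FP and 812 CPM in CV, a ratio of 0.296 (0.287 to 0.304) and a log2 ratio of -1.72. The gene stayed more than 2-fold lower in FP in 12 of 12 alternative settings, between -1.86 and -1.40. Base 3 for the Gnat3 limit and no filter on low values were among the 12 but could not move the ratio. The H2-Q4 transcript shares 24.3% of its 50-base stretches with other genes' transcripts, 33.7% within its last 500 bases, most often with H2-Q6. H2-Q6 itself was at 0 CPM in FP taste cells and 0.169 CPM in CV taste cells, and how reads were divided among near-identical heavy chain genes is not given in the sources used here.

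H2-T23 (chr17:36029773-36032855, minus strand) encodes Qa-1, a nonclassical heavy chain that presents leader peptides of other class I chains and is read by the natural killer receptor CD94-NKG2. It had 0, 7.84 and 929 CPM as its lowest, median and highest level in FP taste cells, and 0, 17.7 and 129.8 CPM in CV taste cells. It was on in 5 FP and 5 CV taste cells, but had at least 1 count in 17 of 21 FP and 25 of 32 CV taste cells. Pooled levels were 39.5 CPM in FP and 38.8 CPM in CV, a ratio of 1.02 (0.932 to 1.11). A single FP cell held 39.7% of the FP counts. The transcript shares 28.8% of its 50-base stretches with other genes' transcripts, against 8.79% for H2-K1 and 14.3% for H2-D1, so all heavy chain levels carry this uncertainty. The entry H2-L, a D-region gene that C57BL/6 mice lack, had 138 counts in FP taste cells and 268 in CV taste cells, beside 14125 counts of H2-D1 in FP and 22639 in CV. The entry H2-K2 had 6 counts in FP taste cells and 511 in CV taste cells, beside 4934 counts of H2-K1 in FP and 8520 in CV. Whether reads were shared between these entries was not tested.

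The 3 abundant heavy chain genes were often on together. H2-K1, H2-D1 and H2-Q4 were all on in 13 of 21 FP taste cells, 13 of 32 CV taste cells and 1 of 7 keratinocyte-like barcodes. None of the 10 genes was on in 2 FP taste cells of 211586 and 263901 counts, in 3 CV taste cells of 62797 to 167199 counts and in 2 keratinocyte-like barcodes of 201535 and 306471 counts. Over cells, Spearman's rho among H2-K1, H2-D1, H2-Q4, H2-T23 and Tapbp ran from 0.23 to 0.64 in FP (21 cells) and from 0.27 to 0.53 in CV (32 cells). The same genes had a rho with total counts of -0.06 to 0.43 in FP and of 0.38 to 0.75 in CV, so cells of CV share depth as well as these genes. The part of depth in these relations was not tested. The map of cells shows the sparse right end of the CV panel, where totals were low.

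**Figure D2:**
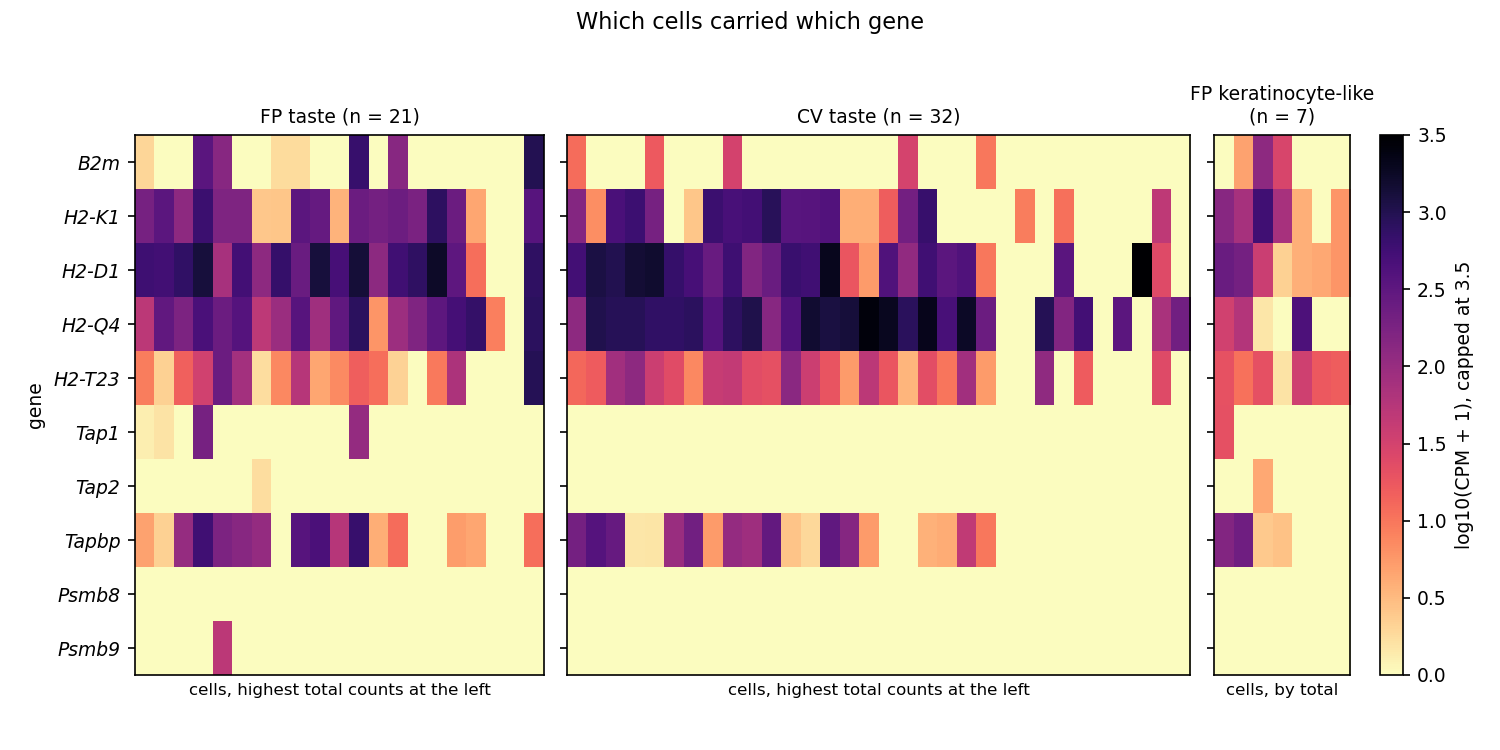
Rows are the 10 genes and columns are single cells or barcodes, sorted within each set from the highest total counts at the left, with colour giving log10(CPM + 1). H2-D1 and H2-Q4 fill most columns of both taste sets, B2m and Tap1 occur in few, Tap1 is empty in all 32 CV taste cells, and the dark H2-D1 column among the shallow CV cells is the barcode at 23945 CPM.

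To compare shares at 1 depth, each cell was thinned to 71770 counts, which left out 6 CV taste cells and none of the FP taste cells. H2-K1 was then detected in 15 of 21 FP taste cells (71.4%) and 15 of 26 CV taste cells (57.7%). Unthinned, it was detected in 90.5% of FP taste cells and in 65.6% of all 32 CV taste cells. Those 32 include the 6 left out here, so the 2 CV shares are over different cells and do not give the loss from thinning. H2-D1 was detected in 18 of 21 FP taste cells and 22 of 26 CV taste cells, H2-Q4 in 20 FP and 24 CV, H2-T23 in 10 FP and 16 CV, and Tapbp in 10 FP and 12 CV taste cells. B2m was detected in 5 of 21 FP taste cells (23.8%) and 5 of 26 CV taste cells (19.2%).

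The peptide transporter genes Tap1 and Tap2 encode the subunits of the TAP heterodimer. Tap1 (chr17:34187553-34197225, plus strand) had 395 counts in FP taste cells, or 17.4 CPM (15.8 to 19.2), and 0 counts in CV taste cells, where 3 counts over the pooled cells, the most that a count of 0 was taken to allow, would be 0.102 CPM. A count was found in 0 of 32 CV taste cells, which by a floor of 3 cells allows up to 9.38% of cells with a count (10.9% by the exact interval) and sets no limit on cells that express the gene. Set against that floor, FP taste cells were at least 171.7-fold higher, which is no confidence bound, since the exact lower limit of the ratio was 139. In FP taste cells it was found in 4 cells, on in 2 of them at 191 and 107 CPM, and 71.1% of its counts came from 1 cell. Without each set's highest cell its log2 ratio was 0.62, and with no Gnat3 limit it was 0.92, both below 2-fold. The CV count of 0 holds only for cells above the Gnat3 limit, since 1 CV barcode below it had 162 Tap1 counts. Tap2 (chr17:34203527-34216321, plus strand) had 1 count in FP taste cells, 0 in CV taste cells and 7 in keratinocyte-like barcodes, all in 1 barcode, so no fold is given.

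Tapbp (chr17:33915899-33929292, plus strand) encodes tapasin, which bridges the heavy chain to TAP and edits its peptide. It had 0, 10.3 and 657 CPM as its lowest, median and highest level in FP taste cells, and 0, 2.19 and 381 CPM in CV taste cells. It was on in 9 of 21 FP taste cells and 10 of 32 CV taste cells, and each of these cells also had a heavy chain gene on. The pooled level was 148 CPM in FP and 132 CPM in CV, a ratio of 1.12 (1.07 to 1.17), and the ranges over cells overlapped almost fully. The log2 ratio was 0.15, but it was 0.82 with the mean of CPM per cell, 0.74 with the median, and 1.10, past 2-fold, after leaving out the 10% of cells that had the largest totals.

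Psmb8 and Psmb9 encode catalytic subunits that replace constitutive ones in the immunoproteasome. Psmb8 (chr17:34197721-34201454, plus strand) had 0 counts in every set, which by a floor of 3 counts allows up to 0.132 CPM in FP taste cells, 0.102 CPM in CV taste cells and 0.252 CPM in keratinocyte-like barcodes. Psmb9 (chr17:34181987-34187764, minus strand) had 71 counts in FP taste cells, all in 1 cell at 48.7 CPM, and 0 in CV taste cells and in keratinocyte-like barcodes. Neither transcript shares a 50-base stretch with another gene. Psmb9, Tap1, Psmb8 and Tap2 lie next to each other in 34.3 kb of chromosome 17, where the GENCODE record of Psmb9 reaches past the Tap1 start. Together these 4 genes summed to 20.6 CPM in FP taste cells, 0 CPM in CV taste cells and 7.30 CPM in keratinocyte-like barcodes. The other 5 genes on that chromosome, all within the same 2.12 Mb, summed to 1269 CPM in FP taste cells, 2038 CPM in CV taste cells and 493 CPM in keratinocyte-like barcodes.

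**Figure D3:**
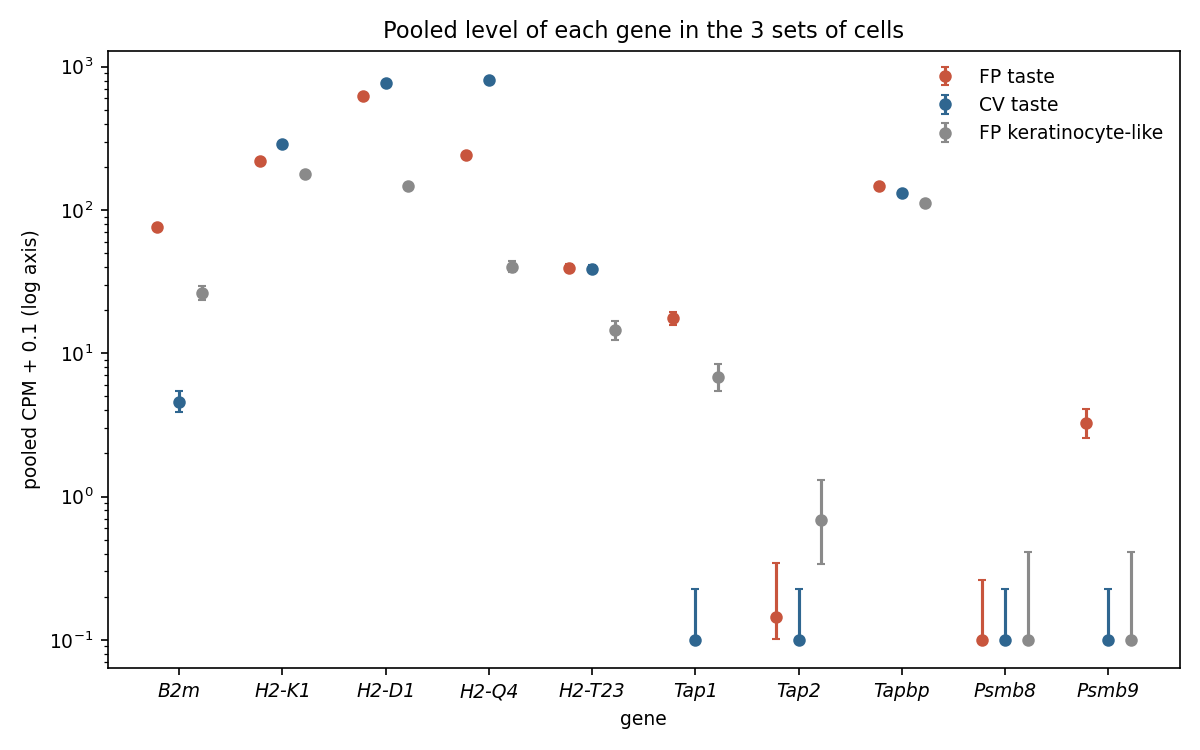
Points are pooled CPM + 0.1 of each gene on a log axis in FP taste cells, CV taste cells and FP keratinocyte-like barcodes, with exact 95% Poisson intervals for counting error. The heavy chain genes H2-K1 and H2-D1 and tapasin (Tapbp) lie close together in FP and CV taste cells, H2-Q4 is higher in CV at 812 CPM, and B2m and Tap1 are higher in FP.

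Per kilobase of transcript, the order of levels in FP taste cells was H2-D1 (297 CPM per kb), H2-K1 (135), H2-Q4 (134), B2m (88.8), Tapbp (50.95), H2-T23 (26.8) and Tap1 (5.91). In CV taste cells it was H2-Q4 (453 CPM per kb), H2-D1 (365), H2-K1 (178), Tapbp (45.5), H2-T23 (26.3) and B2m (5.24). In keratinocyte-like barcodes it was H2-K1 (110.5 CPM per kb), H2-D1 (70.4), Tapbp (38.4), B2m (30.4), H2-Q4 (22.4) and H2-T23 (9.80). H2-K1 and H2-Q4 in FP differed by less than their counting error, and cell ranges of neighbours in each order overlapped. B2m ranked below 3 heavy chain genes in FP and below 4 of them in CV.

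The 5 FP taste cells with B2m on all had H2-K1, H2-D1 and H2-Q4 on as well. Among them the cell with 970.5 CPM of B2m was the shallowest FP taste cell (193718 counts), and it also held the highest H2-T23 level. Its counts were 39.8% mitochondrial, against 9.42% to 11.7% in the other B2m-on cells. The cells with 345 and 672 CPM of B2m were those with Tap1 on, at 191 and 107 CPM, and had 564 and 657 CPM of Tapbp. The cell with Psmb9 had 137 CPM of B2m and 243 CPM of H2-T23. The summed level of a list of 34 interferon-induced genes, of which 32 were in the files, was 1.09 to 2115 CPM in B2m-on cells (median 369) and 7.58 to 2248 CPM in the other 16 FP taste cells (median 312), so these overlapped fully. Markers of leukocytes, which express much B2m, were near 0 in FP taste cells, with 7 of 15 in the files, 2 of these 7 with any count and a summed level of at most 3.59 CPM in any FP taste cell and 0.265 CPM pooled. In CV taste cells 4 of these 7 had a count, with a summed level of 0 to 180 CPM per cell and 12.7 CPM pooled. The general leukocyte gene Ptprc had 0 counts in all 3 sets. Of 3 listed endothelial markers only Pecam1 was in the files. It had 0 CPM in FP taste cells and 36.3 CPM in CV taste cells, where 2 cells had it on. Whether leukocytes or endothelial cells added to the CV levels was not tested. Of 9 class II presentation genes 4 were in the files. H2-DMa had 4.72 CPM in FP taste cells (1 cell on) and 16.6 CPM in CV taste cells (2 cells on). Ciita had 0 CPM in FP taste cells and 5.48 CPM in CV taste cells (1 cell on). The invariant chain gene Cd74 had 0 counts in all 3 sets.

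Of the 10 genes 7 reached 10 CPM in either set of taste cells, and Tap2, Psmb8 and Psmb9 did not. Among these 7, B2m and Tap1 were more than 2-fold higher in FP, H2-Q4 was more than 2-fold higher in CV, and 4 were within 2-fold. Of all 10918 genes at that level, 17% were more than 2-fold higher in FP and 21% more than 2-fold higher in CV, so these counts are near the background. The median log2 ratio was 0.02 for the 7 genes and -0.05 for all genes. With each gene's highest cell left out, or with no Gnat3 limit, 1 of the 7 was higher in FP (B2m), at a log2 ratio of 2.15 and 1.51.

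**Figure D4:**
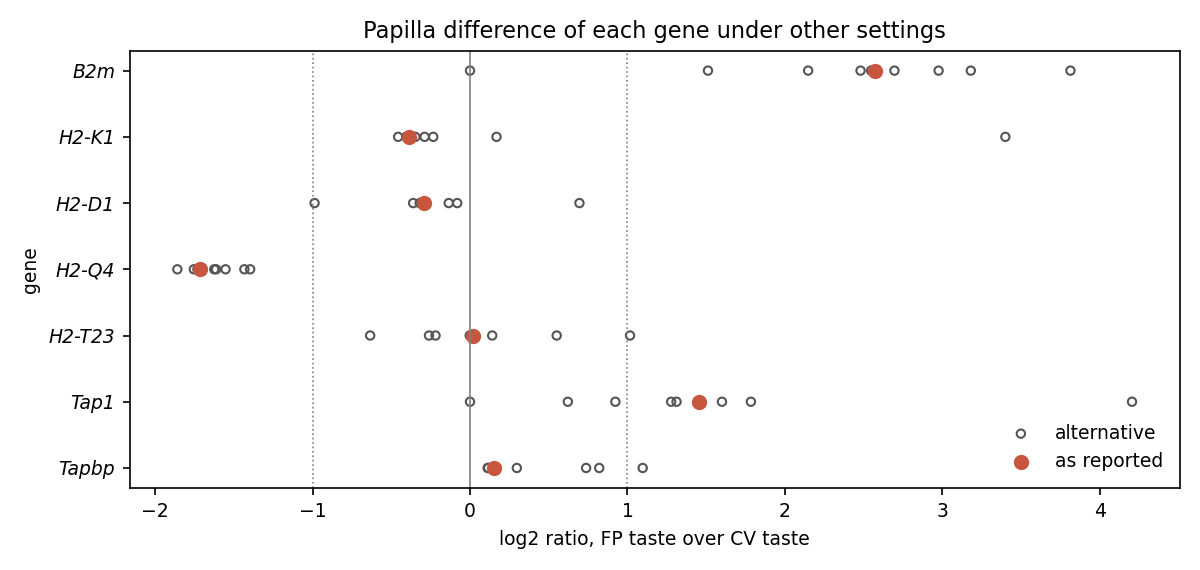
Filled points are log2 ratios of FP over CV taste cells as reported, and open points are the 12 alternative settings, for the 7 genes that reached 10 CPM, with dotted lines at 2-fold. H2-Q4 stays left of -1 throughout, B2m is right of 1 in 11 of 12 settings and Tap1 in 9 of 12, and H2-K1, H2-D1 and H2-T23 fall on both sides of 0. The 12 include base 3 for the Gnat3 limit and no filter on low values, which could not move a ratio.

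Against the 7 FP keratinocyte-like barcodes, which come from the same library, H2-Q4 and H2-D1 stood out most. H2-Q4 had 240.1 CPM in FP taste cells and 40.2 CPM in keratinocyte-like barcodes, a ratio of 5.97 (5.44 to 6.57). It was on in 16 of 21 FP taste cells and 2 of 7 barcodes. H2-D1 had 624 CPM in FP taste cells and 148 CPM in the barcodes, giving a ratio of 4.22 (4.01 to 4.43). The gene was on in 18 of 21 FP taste cells and 2 of 7 barcodes. In the barcodes the lowest, median and highest H2-D1 levels were 1.19, 4.96 and 253 CPM. H2-Q4 reached 441 CPM in 1 barcode but had a median of 0.477 CPM. H2-K1 was within 2-fold, at 218 CPM in FP taste cells and 179 CPM in the barcodes, where 4 of 7 had it on and 1 barcode gave 56.4% of the counts. Tapbp was also within 2-fold, at 148 CPM in FP taste cells and 111 CPM in the barcodes. B2m, with 76.4 CPM in FP taste cells and 26.2 CPM in the barcodes, passed 2-fold at a log2 ratio of 1.26, and 1 barcode held 81.4% of its counts there. H2-T23, with 39.5 CPM in FP taste cells and 14.4 CPM in the barcodes, passed it at 1.02, although the median over cells was lower in FP taste cells (7.84 CPM) than in the barcodes (16.3 CPM). Its log2 ratio was 0.69 without each gene's highest cell and -0.56 with the median of CPM per cell. TMM scaling of the pooled counts put B2m (0.57) and H2-T23 (0.43) within 2-fold. Tap1 stood at 17.4 CPM in FP taste cells and 6.71 CPM in the barcodes, all from 1 barcode, and was within 2-fold at 0.72.

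Of the 7 genes at 10 CPM or more in either FP set, 4 were more than 2-fold higher in taste cells and none was more than 2-fold lower. Among all 9977 such genes 48.4% were more than 2-fold higher in taste cells and 18% more than 2-fold lower, so the count is near the background. The median log2 ratio was 1.02 for the 7 genes and 0.93 for all genes. Relative to that shift of all genes, H2-Q4 was 1.39 and H2-D1 1.08 higher in taste cells on the log2 scale, H2-T23 0.09 and B2m 0.33, and H2-K1 (-0.66), Tapbp (-0.55) and Tap1 (-0.21) were lower. TMM scaling, which brought the median of all genes to 0.19, gave log2 ratios of 1.57 for H2-Q4 and 1.18 for H2-D1 and turned H2-K1 (-0.55) and Tapbp (-0.43) to lower in taste cells. Under it 37.8% of all genes were more than 2-fold higher in taste cells and 29.2% more than 2-fold lower. The keratinocyte-like barcodes held Gnat3 at a level that, as a share of the taste cell profile, would give them 1.14 CPM of H2-D1.

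Around the 10 genes, the general machinery of peptide supply and loading was well represented in both papillae. The chaperone genes Calr (444 CPM in FP, 466 in CV), Canx (199 CPM in FP, 206 in CV) and Pdia3 (259 CPM in each), which encode calreticulin, calnexin and ERp57, had nearly equal pooled levels. Of 13 loading and chaperone genes all reached 10 CPM, 11 were within 2-fold, none was more than 2-fold higher in FP and 2 were more than 2-fold higher in CV, beside 17% of all genes higher in FP and 21% higher in CV. The 2 genes were Erap1, the peptidase that trims class I peptides in the endoplasmic reticulum (0.618 CPM in FP, 50.95 CPM in CV), and Bcap31, a sorting receptor of the endoplasmic reticulum (38.02 CPM in FP, 169 CPM in CV). Erap1 was on in 0 FP and 3 CV taste cells. The median log2 ratio of the 13 was -0.05.

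The constitutive proteasome contrasted with the immunoproteasome. Psmb5, Psmb6 and Psmb7, the constitutive catalytic subunits, had 356, 217 and 325 CPM in FP taste cells and 203, 157 and 184 CPM in CV taste cells. Psmb10, the remaining immunoproteasome subunit, reached 29.3 CPM in FP taste cells and 0.609 CPM in CV taste cells, with 3 FP and 0 CV taste cells on. It was the 1 gene of 19 proteasome genes past 2-fold in the list, higher in FP, beside 17% of all genes, and 18 were within 2-fold. The median log2 ratio of the 19 was 0.61 against -0.05 for all genes. The proteasome activator genes Psme1 and Psme2 had 160.1 and 149 CPM in FP taste cells and 101 and 82.2 CPM in CV taste cells.

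Among other class I heavy chain genes 18 of 23 were in the files and 4 reached 10 CPM. H2-M3, which presents formylated peptides, reached 21.8 CPM in FP taste cells through 1 cell on and had 0 CPM in CV taste cells. H2-Q2 reached 18.1 CPM in FP taste cells, with 2 cells on, against 0.677 CPM in CV taste cells. H2-T22 (9.01 CPM in FP, 17.6 CPM in CV) and H2-Q1 (7.77 CPM in FP, 13.6 CPM in CV) differed by less than 2-fold once 10 CPM were added to each. Summed, these 18 genes gave 60.4 CPM in FP and 37.1 CPM in CV.

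Of 29 genes that regulate class I genes, 28 were in the files and 26 reached 10 CPM, of which 5 were more than 2-fold higher in FP, 3 more than 2-fold higher in CV and 18 within 2-fold (median log2 ratio 0.12). These counts stand beside 17% of all genes higher in FP and 21% higher in CV. The 2 chains of the interferon gamma receptor differed in opposite directions. Ifngr1, with 8 FP and 2 CV taste cells on, stood at 109 CPM in FP taste cells, against 33.7 CPM in CV taste cells. Ifngr2, with 0 FP and 9 CV taste cells on, stood at 2.43 CPM in FP taste cells, against 61.4 CPM in CV taste cells. The kinase gene Jak1 (125 CPM in FP, 54.8 CPM in CV) and Rfx5, a subunit of the factor that binds the X box of MHC promoters (27.6 CPM in FP, 4.57 CPM in CV), were higher in FP. Il10rb, a shared receptor chain of interleukin 10 and interferon lambda, was higher in CV (42.1 CPM in FP, 155 CPM in CV).

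Of the 34 interferon-induced genes 15 reached 10 CPM, with 6 more than 2-fold higher in FP, 3 more than 2-fold higher in CV and a median log2 ratio of 0.51, beside 17% of all genes higher in FP, 21% higher in CV and a median of -0.05. Ifitm2 reached 312 CPM in FP taste cells and 104 CPM in CV taste cells, and Xaf1, an apoptosis regulator, 71.8 CPM in FP taste cells and 13.5 CPM in CV taste cells. Ifitm3 (21.5 CPM in FP, 79.2 CPM in CV) and Ifitm1 (0 CPM in FP, 30.98 CPM in CV) were higher in CV, and all 3 Ifitm genes encode membrane proteins that restrict virus entry. The 2 directions within 1 family were thus both past 2-fold in pooled counts, but some rested on few cells. Ifitm2 was on in 13 FP and 7 CV taste cells, and Xaf1 in 4 FP and 2 CV taste cells. Ifitm3 was on in 1 FP and 3 CV taste cells, and Ifitm1 in 0 FP and 5 CV taste cells. The plot of the gene lists shows how wide each list was around its median.

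**Figure D5:**
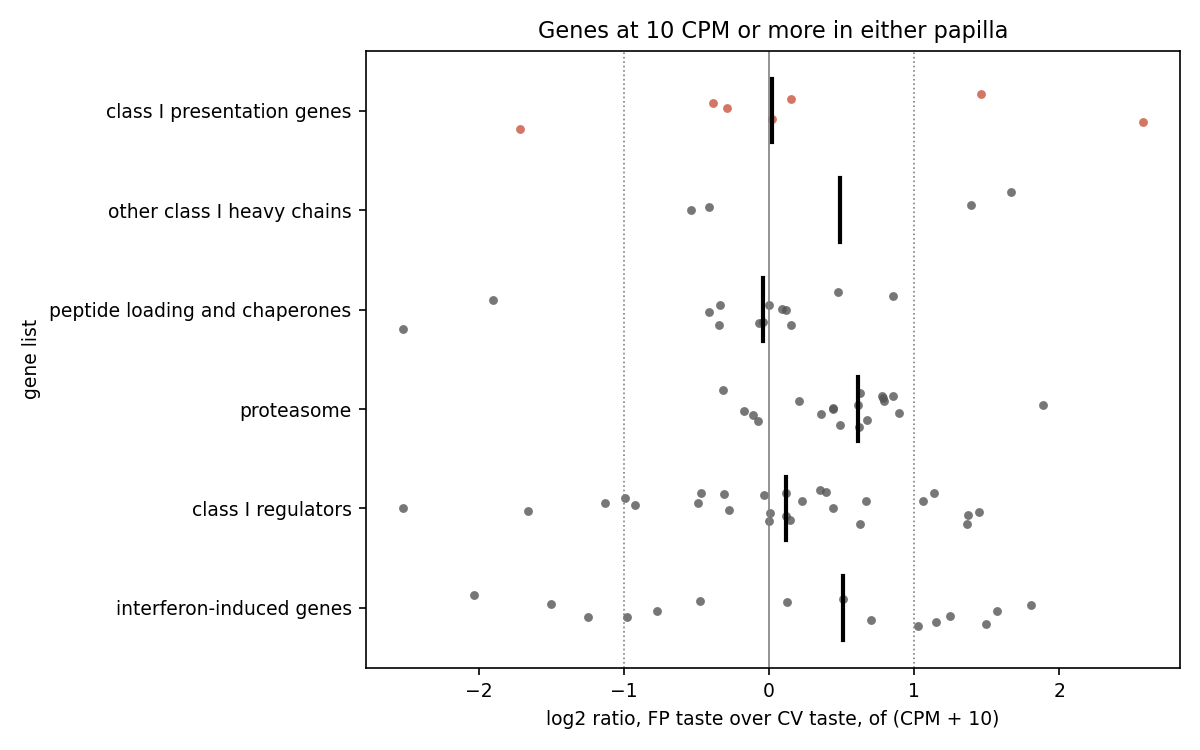
Each point is a gene at 10 CPM or more in either papilla, placed on the x axis by its log2 ratio of FP over CV taste cells on the CPM + 10 scale, for 7 of the 10 class I genes and 5 related lists, with black bars at list medians and dotted lines at 2-fold. Proteasome genes lie mostly right of 0 (median 0.61) and within 2-fold, while the class I genes, regulators and interferon-induced genes fall on both sides.

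The genes whose level over cells was most like the sum of B2m, H2-K1 and H2-D1 were ranked by the lower of the FP and CV values of Spearman's rho, among 1746 genes. Those most like it included Rps2 (0.63), Ash1l (0.59), Gng12 (0.59), Ctnnb1 (0.59), Cldn7 (0.57) and Snrpd2 (0.56), over 21 FP and 32 CV taste cells, against a median of 0.15 over all genes ranked. The sum itself had a rho with total counts of 0.18 in FP and 0.64 in CV, and Rps2 had 0.49 in FP and 0.54 in CV, so the CV values share depth.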

How the data were processed

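Papilla epithelium was digested with enzymes, and live single GFP-positive cells were sorted and captured on BD Rhapsody beads, per the labels' protocols. The authors deposited 1 table of raw counts per library, with genes in rows and cell barcodes in columns. Per the submitters' processing notes, cutadapt 2.10, Bowtie2 2.3.4.1 and Seurat 2.3.4 were used with build mm10, and the series design names distribution-based error correction of counts. The sources used here do not say whether molecular barcodes were collapsed.

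The stated Gnat3 limit was read on the natural log scale. Base 3 gave the same 21 FP and 32 CV cells. Cells were not filtered on mitochondrial or ribosomal RNA in the main values, and no doublet caller was run on these few barcodes. Counts were pooled per set as CPM, with exact Poisson, conditional binomial and Clopper-Pearson 95% intervals (scipy 1.17.1), and ratios are log2 of CPM plus 10. A gene counted as different past 2-fold, which is a size and not a test. TMM factors came from edgeR 4.0.16. The ratio and interval functions were tested on simulated data. Gene positions are from GENCODE M21 on mm10 and sequences from RefSeq on GRCm38.p6. All 10 genes are named whatever their values. Of the surrounding lists, genes at 10 CPM or more could be named. H2-Q6, H2-L, H2-K2, Cd74, Actb and the lower-level genes given for context were named after their values were seen. The members, lists and motifs were chosen with earlier results of these data known. Some genes that met these rules are left out of the text, while counts and medians include them.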

Additional observations from a re-analysis of the deposited data

Results flagged for a closer look

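Of the 90 barcodes 30 were in none of the sets described, 1 from FP and 29 from CV, and 11 sums of the class I genes in them exceeded the 3 counts that a count of 0 allows. In the FP barcode these were 126 counts of H2-D1, 72 of H2-Q4 and 35 of H2-T23. In the CV barcodes they were 609 counts of B2m, 1323 of H2-K1, 6257 of H2-D1, 729 of H2-Q4, 667 of H2-T23, 162 of Tap1, 9 of Tap2 and 1062 of Tapbp. One CV barcode of 4088415 counts and 9949 genes, below the Gnat3 limit at 14.9 CPM, held all of those B2m, Tap1 and Tap2 counts. It had 149 CPM of B2m, 1528 CPM of H2-D1, 39.6 CPM of Tap1 and 1028 CPM of the interferon-induced gene Ifi27. It also had 1369 CPM of Trpm5 and 370 CPM of Pou2f3, genes of type II taste cells, and 9041 counts of the sweet receptor gene Tas1r2. So B2m above 50 CPM in a cell with Tap1 counts was not limited to the FP library, although no CV taste cell that passed the Gnat3 limit showed it.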

How the results depend on the processing

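The number of class I genes more than 2-fold higher in FP than in CV was 2, and 1 with no Gnat3 limit, 1 with the median of CPM per cell, 1 without each gene's highest cell, 3 with the mean of CPM per cell and 3 after leaving out the 10% of cells that had the largest totals. The number more than 2-fold higher in FP taste cells than in keratinocyte-like barcodes was 4, and 2 under TMM scaling, 3 with the median of CPM per cell, 3 without each gene's highest cell, 5 with the mean of CPM per cell, 5 with a pseudocount of 1 CPM and 6 after leaving out the 10% of cells that had the largest totals. The log2 ratio of H2-T23 in FP taste cells over keratinocyte-like barcodes reversed to -0.56 with the median of CPM per cell. Over 12 alternatives the log2 ratio of FP over CV ran from 0 to 3.81 for B2m, 0 to 4.20 for Tap1, -0.99 to 0.70 for H2-D1, -0.46 to 3.40 for H2-K1, -0.63 to 1.02 for H2-T23 and 0.11 to 1.10 for Tapbp. The median per cell is 0 for genes on in few cells, and it moved the median ratio of all genes to 1.20, as the mean per cell moved it to 0.21. TMM scaling moved that median from -0.05 to 0.11 in FP over CV. Over 10 alternatives H2-Q4 (1.57 to 4.58) and H2-D1 (1.18 to 5.24) stayed more than 2-fold higher in FP taste cells than in keratinocyte-like barcodes. Some alternatives could not move a gene's ratio. These were base 3 for the Gnat3 limit (FP over CV), a keratin limit of 10000 CPM (keratinocyte-like barcodes) and no filter on low values (both comparisons). FP taste cells with keratin below 10 CPM numbered 0, so that alternative was not run. Leaving out 5 CV cells with adjoining barcode numbers, and keeping only keratinocyte-like barcodes of 1000000 counts or more, were added after the data were seen and changed no count of genes past 2-fold. No paired analysis was possible because each papilla has 1 library and no test was made. Depth limits the statements on genes at 0, since 0 counts allow up to 0.102 CPM in CV taste cells.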
